A study of Homo sapiens with 12 samples.

Results

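Interferon-stimulated genes are the genes that cells switch on when an interferon reaches its receptor, and 46 of them were followed here among the 25992 genes named on the array. They were chosen by gene name as sensors, transcription factors and antiviral effectors known for this response. Human proximal tubular cells of the lines HK-2, immortalized with papillomavirus oncogenes, and RPTEC/TERT1, immortalized with telomerase, were starved of serum and supplements for 24 h. They then received IL-1β, a pro-inflammatory cytokine, at 10 ng/mL, or empagliflozin (Empa), an inhibitor of the sodium-glucose cotransporter SGLT2, at 500 nM, or no agent as control. RNA was taken after 24 h and hybridized to one-colour Agilent arrays. This gave 6 groups (HK-2 control, HK-2 IL-1β, HK-2 Empa, RPTEC/TERT1 control, RPTEC/TERT1 IL-1β and RPTEC/TERT1 Empa) of 2 arrays each. The study set out to find tubular genes that respond to IL-1β and to SGLT2 inhibition. Each of the 4 slides carried 1 control, 1 IL-1β and 1 Empa array with the same line label and replicate number.

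Values are scaled signals in signal units, which are background-subtracted intensities brought to a common 75th percentile, and fold changes are ratios of treated to control on the same slide. Between 53.5% and 63.5% of the spots of an array were well above background, the mark the scanner software gives to a spot clearly brighter than its surroundings. Tests used limma with the slide as a block over all 12 arrays, and p-values were adjusted by Benjamini-Hochberg over the 15717 genes that passed a filter on dim probes, with a threshold of 0.05. Of the 46 members, 39 could be tested. GBP5, RSAD2, XAF1, SAMD9, TRIM22 and EPSTI1 did not pass the filter, and PLSCR1 lacked a value on 2 arrays with outlier spots. In the fit over all 12 arrays the p-values weigh a treatment difference against the spread among the 4 slides. This spread is estimated per gene from the control arrays and the arrays of both agents together. The p-value for an agent therefore also carries the spread of the other agent's arrays. The labels name the 4 slides as 2 replicates of each of 2 lines, and the number of arrays limits the precision.

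The line labels of the slides were in doubt. Across 15324 probes, the control arrays of HK-2 replicate 1 and RPTEC/TERT1 replicate 2 had r = 0.984 and those of RPTEC/TERT1 replicate 1 and HK-2 replicate 2 had r = 0.973. Within a line label, by contrast, the control arrays had r = 0.880 for HK-2 and r = 0.875 for RPTEC/TERT1. The IL-1β arrays (0.984 and 0.982) and the Empa arrays (0.960 and 0.979) paired the slides in the same way. Probes are not independent replicates, and these values describe likeness only. The source field of the labels also names HK-2 for all 12 samples. Signals are therefore given by slide, always in the order HK-2 replicate 1, RPTEC/TERT1 replicate 2, RPTEC/TERT1 replicate 1 and HK-2 replicate 2. HK-2 replicate 1 and RPTEC/TERT1 replicate 2 are called the first slide pair, and the other slides the second slide pair. Both pairs were drawn from the data, were not compared by a test and are not the study's groups. The HK-2 Empa replicate 1 array stood apart, since its log2 differences from control had an SD of 0.847 over all genes, against 0.528, 0.506 and 0.570 on the other slides. Results that rest on it are given with and without it.

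The proximal tubule markers LRP2, AQP1, GGT1 and PAX8 were well above background on all 12 arrays, as were the epithelial markers EPCAM, KRT8 and KRT18, while CDH1 was so on 6. CUBN, SLC22A6 and HNF4A, which also mark proximal tubule, were well above background on none, ANPEP on 6 and SLC34A1 on 4. The 4 proximal tubule markers on all arrays summed to 3712, 3685, 2369 and 2703 in control, 7144, 6546, 1821 and 1523 with IL-1β and 9059.5, 4234, 2254 and 2012 with Empa, with PAX8 the brightest. The sum with IL-1β was above control on both slides of the first pair and below it on both of the second. The 4 epithelial markers, with EPCAM the brightest in the mean of the 12 arrays but not on each, summed to 34019, 36277, 15923 and 18157 in control, 23328, 26610.2, 12609 and 13369 with IL-1β and 42842, 33281, 13419.9 and 13623 with Empa, below control on all 4 slides with IL-1β. Of the fibroblast markers COL1A1 was well above background on 11 arrays, DCN on 8 and PDGFRB on none, and of the distal nephron markers UMOD on 11 and SLC12A3 and AQP2 on none. The 3 fibroblast markers summed to between 22.3 and 70.0 signal units on the first slide pair and to between 1419 and 3048 on the second, where DCN was the brightest. Of the leukocyte markers, PTPRC and CD68 were well above background on all 12 arrays, CD14 on 11 and CD3E on 2. PTPRC and CD68, of which CD68 was the brighter in the mean of the 12 arrays but not on each, together summed to 182, 150.5, 862 and 937 in control, 773, 571, 881 and 644 with IL-1β and 112, 91.8, 745 and 554 with Empa. Of the endothelial markers CDH5 was so on all 12 arrays, VWF on 2 and PECAM1 on none, and the 3 summed to between 60.3 and 124 signal units. The part of these markers in the results was not tested, and fewer cells of a type and less RNA per cell cannot be told apart.

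Interferons bind receptors coupled to Janus kinases, which activate STAT factors. A complex of STAT proteins with IRF9 then binds the interferon-stimulated response element (ISRE), and STAT dimers formed after interferon-γ bind the gamma-activated site (GAS), so that genes for sensing, degrading and trapping viruses are transcribed. Tubular epithelial cells carry interferon receptors, and some of the same genes also respond to NF-κB, the main transcription factor downstream of IL-1β.

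The promoters of the members were searched because the response is defined by these elements. RefSeq promoter sequences (GRCh38.p14) from 250 bases before to 50 bases after the start were matched by symbol for 36 of the 46 members, and IRF7, IFIT2, OAS2, OASL, MX2, USP18, GBP2, GBP5, IFITM2 and TRIM22 were not in the table. The ISRE core GAAANNGAAA, searched on both strands with overlaps allowed, was present in 23 of 36 (63.9%), against 3.57% of 35116 promoters of the same length. GAS, searched as TTCNNNGAA on both strands, was present in 11 of 36 (30.6%) against 7.66% of all, and the NF-κB site in 9 of 36 (25%) against 11.3%. Matches of different motifs were allowed to overlap. The ISRE core and GAS occurred together in 7 members, the ISRE core and the NF-κB site together in 6, at least 2 ISRE cores in 12 and none of the 3 motifs in 7. A match describes letters in this window and is not evidence of a site in use.

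**Figure D1:**
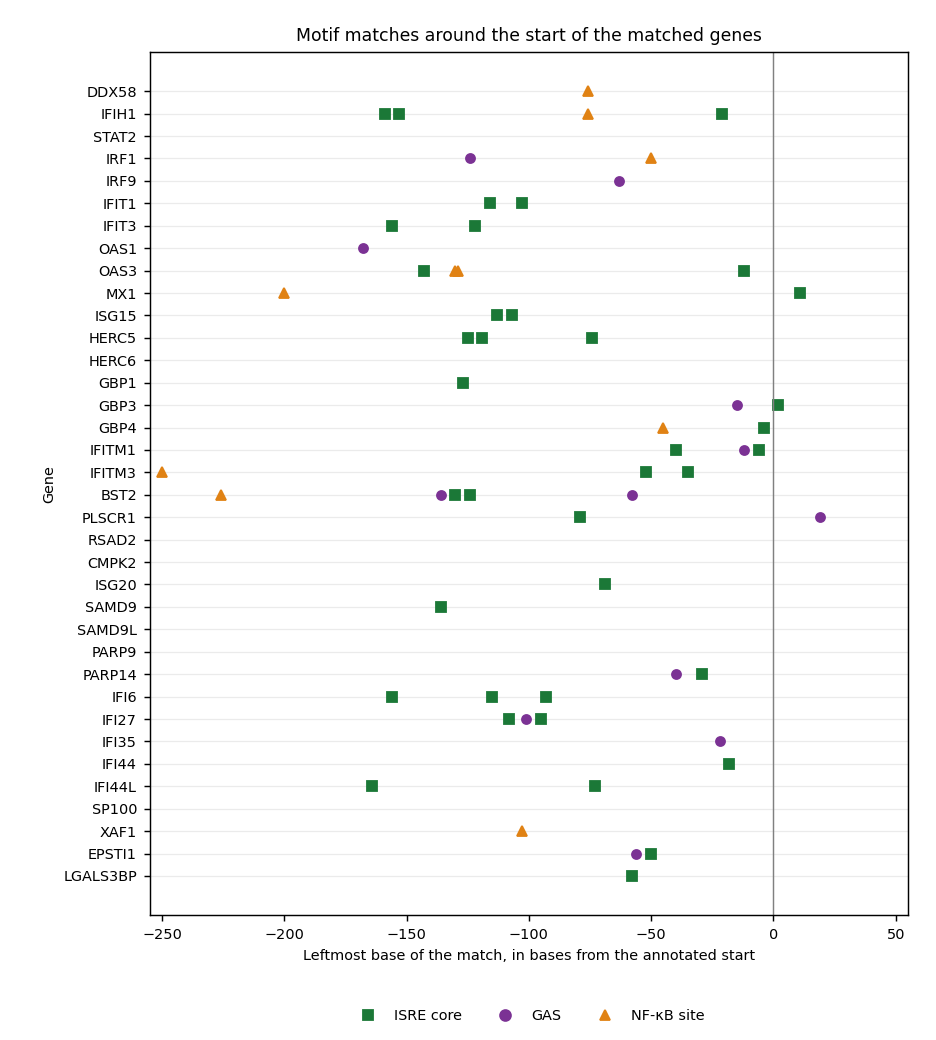
Distance of each motif match from the gene start in bases (horizontal axis, 250 before to 50 after) for the 36 members with a promoter sequence, grouped by role. An ISRE core was present in 23 of them, GAS in 11 and the NF-κB site in 9.

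Untreated cells differed in these genes from slide to slide, as they did in other genes. The control level of a member spanned a median of 1.20 on the log2 scale over the 4 slides, against 1.06 over all genes tested, and 9 of 39 members spanned over 2, as did 2709 of the 15717 genes. Both slides of the first pair were above both of the second for 22 of 39 members (34.6% of all genes tested) and below them for 12 (32.3% of all). Among members that were tested, the control level differed most for IFITM2, which blocks entry of viruses that fuse in endosomes, with signals of 34481, 31813, 345 and 626, a 100.0-fold range. Both slides of the first pair were high and both of the second were low. Over all 46 members the highest bound was that of TRIM22, a nuclear antiviral ubiquitin ligase, at least 162.5-fold between its highest and its lowest slide. Its signals were 819 and 966 on the first pair and not well above background on either slide of the second. Other dim members, such as RSAD2 (at least 17.8-fold) and EPSTI1 (at least 4.91-fold), have no exact range either, so the widest is not known. Between the labels, the contrast of RPTEC/TERT1 control against HK-2 control, from a limma fit of the 6 groups without a block, called 0 genes (171 at an unadjusted p under 0.05, 0 of them members).

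**Figure D2:**
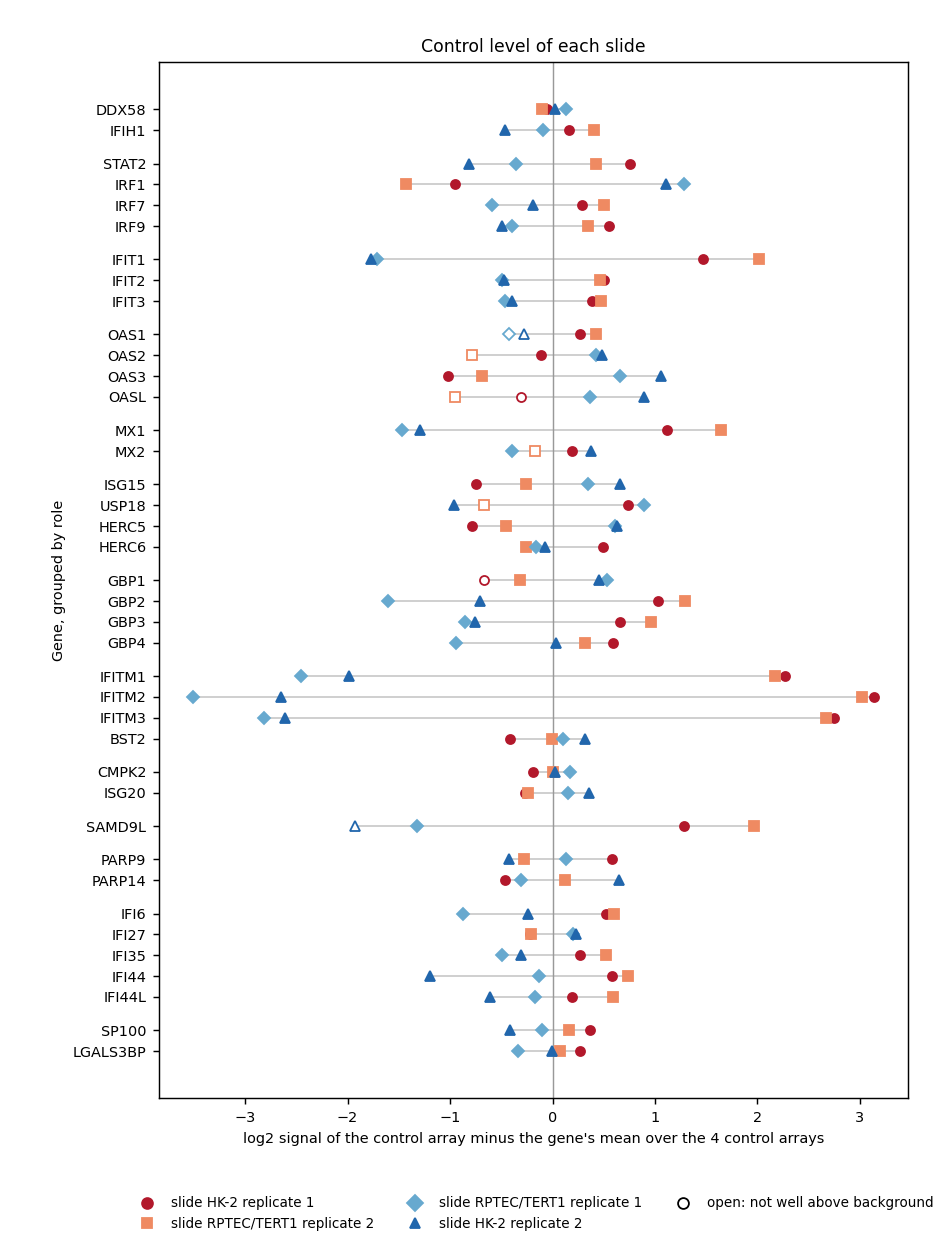
Log2 signal of the 39 tested members on the 4 control arrays minus the mean of the gene over these arrays (horizontal axis), grouped by role, with 1 point per slide and open symbols where the spot was not well above background. IFITM2 spans the widest range, 6.64, with both slides of the first pair to the right.

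IL-1β lowered IFIT1 and IFIT2 and raised GBP1 on every slide, while most of the other members differed in direction between slides. Of the 39 members tested, 1 was higher (GBP1, against 4.52% of all genes tested) and 4 were lower with IL-1β (IFIT1, IFIT2, PARP9 and IFITM2, against 7.91% of all genes). These shares are near those of all genes and are no result about the members as a set. At an unadjusted p under 0.05, 3 members were higher and 8 lower, 11 of 39, as were 4435 of the 15717 genes in either direction. The median log2 fold change was -0.09 over the members and -0.11 over all genes, with 19 members above 0 and 20 below, and the member median was 0.04 after quantile normalization, with or without normexp background correction. With IL-1β, GBP1, GBP2 and IRF1 were above control on all 4 slides, 3 of 39 members against 15.0% of all genes. IFIT1, IFIT2, IFIT3, PARP9, IFITM2, IFITM3, HERC6, DDX58, LGALS3BP and BST2 were below control on all 4 slides, 10 of 39 members against 24.9% of all genes. The count of members lower with IL-1β was 2 without any of the 4 control arrays, without either RPTEC/TERT1 IL-1β array or without HK-2 IL-1β replicate 2, each left out alone, and IFIT1 and IFIT2 were the members called. Without HK-2 Empa replicate 1, the IL-1β estimates stayed as they were. In that fit 7 members were lower (DDX58, HERC6 and IFIT3 in addition) and 2 higher (GBP2 in addition). The count higher was also 2, with GBP2, without RPTEC/TERT1 IL-1β replicate 1 or HK-2 IL-1β replicate 2, and it was 0 without the slide RPTEC/TERT1 replicate 2. The count lower was 5 without the slide HK-2 replicate 1 and 2 without any other slide.

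The slides differed in how the members moved. The median IL-1β difference of the members was 0.29 and 0.17 on the first slide pair (log2, 25 and 22 of 39 members above control), against -0.17 and -0.01 over all genes. On the second pair it was -0.33 and -0.32 (10 and 9 members above control), against -0.06 and -0.18 over all genes. By line label, limma called 0 members with IL-1β in HK-2 (0.255% of all genes, 6 of 39 members and 2549 of 15717 genes at an unadjusted p under 0.05) and IFIT1 alone in RPTEC/TERT1 (0.261% of all genes, 4 members and 1812 genes unadjusted). The IFIT1 call by label was lost with no replicate block and after quantile normalization. The contrast of the difference between the labels called 0 genes (272 at an unadjusted p under 0.05, 0 of them members).

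**Figure D3:**
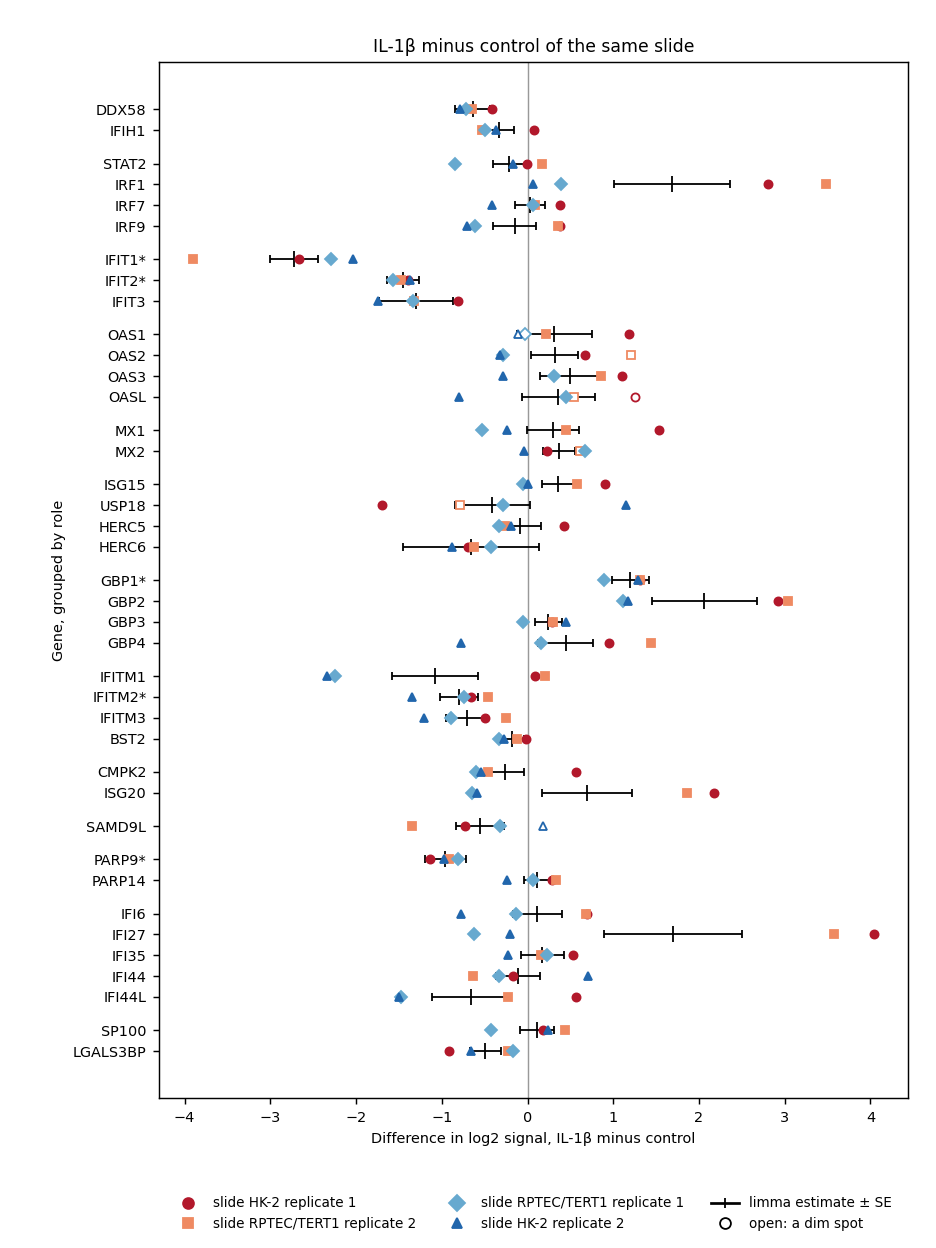
Log2 difference of IL-1β from control on the same slide (horizontal axis) for the 39 tested members by role, with 1 point per slide, open where either spot was not well above background, the limma estimate ± SE and an asterisk for an adjusted p under 0.05. The 4 points of IFIT2 lie between -1.57 and -1.37, while those of IFI27 run from -0.62 to 4.04.

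Empa called no member. None of the 39 was higher (0.00636% of all genes, which is 1 gene) or lower (0% of all genes) in limma, and IFI44L, OASL, IFITM2 and LGALS3BP, all with lower values, were the 4 members at an unadjusted p under 0.05, a threshold that 1887 of the 15717 genes passed. The 1 gene called, DHRS2, is not a member and was named after its values were seen. The median log2 fold change with Empa was -0.07 over the members and -0.02 over all genes. PARP14 and IFIH1 were above control on all 4 slides (2 of 39 members, 12.5% of all genes). IFI44L, OASL, GBP2, IFIT3, ISG20, IFITM2, IFITM1, IFITM3, IRF9 and ISG15 were below control on all 4 slides (10 of 39 members, 13.9% of all genes). For OASL, HK-2 replicate 2 was the only slide with both spots well above background. On the HK-2 replicate 1 slide, 10 members were under -1 on the log2 scale, against 0, 2 and 1 on the other slides. Over all genes these shares were 12.2% on HK-2 replicate 1 and 1.90%, 3.099% and 2.75% on the others. Without its Empa array, 0 members were called, 3 passed an unadjusted p of 0.05 (1784 of all genes) and the member median was 0.08. By line label, limma called 0 genes with Empa for HK-2 (1460 unadjusted), 0 for RPTEC/TERT1 (336 unadjusted) and 0 for the difference between the labels (154 unadjusted, 0 of them members). The IL-1β and Empa comparisons share the 4 control arrays, so their values stand side by side and no overlap is drawn between them.

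**Figure D4:**
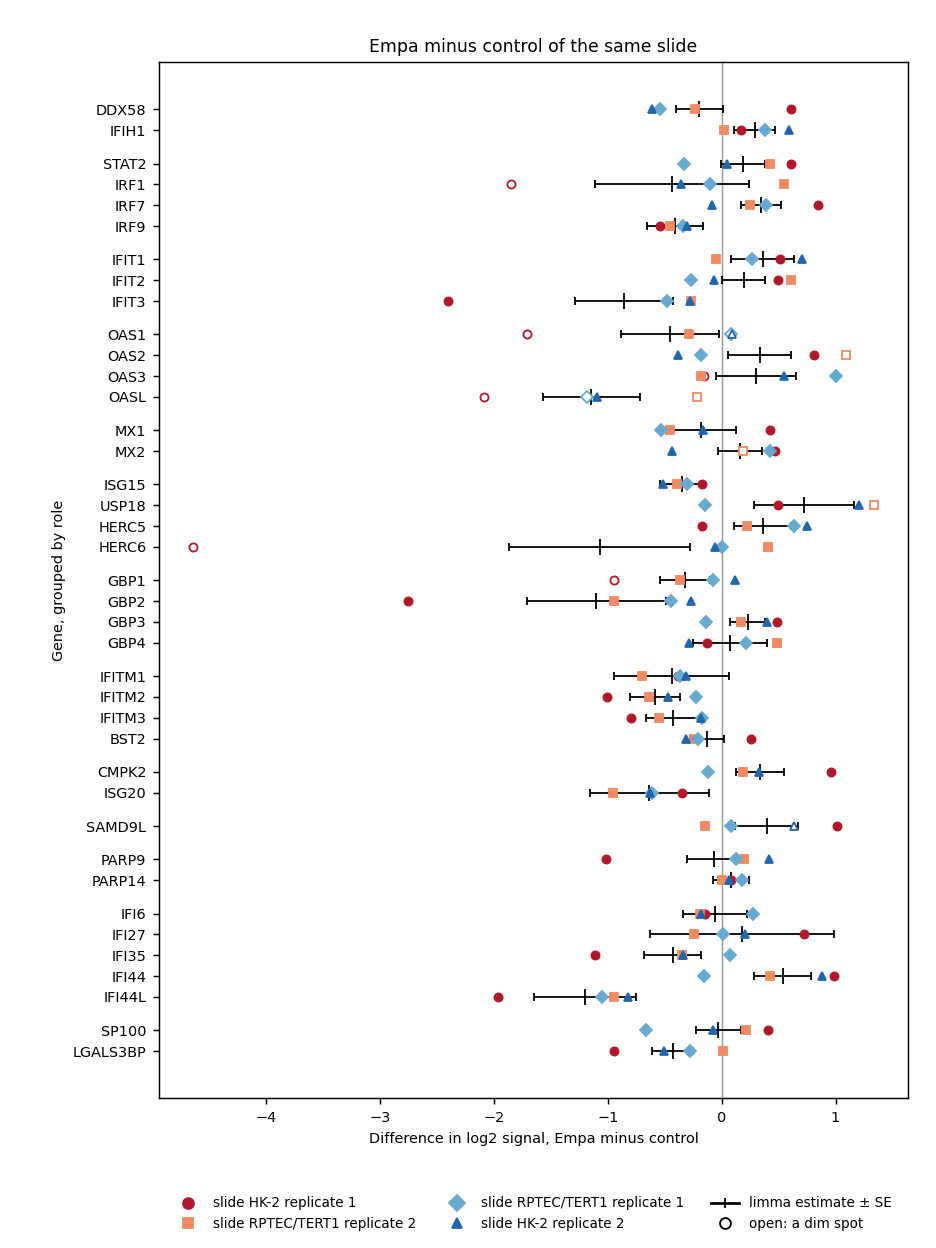
Log2 difference of Empa from control on the same slide (horizontal axis) for the 39 tested members by role, with 1 point per slide, open where either spot was not well above background, and the limma estimate ± SE. The points farthest to the left belong to the HK-2 replicate 1 slide, at -2.75 for GBP2 and, as an open symbol, for HERC6, whose fold there is known only as at least 7.69-fold lower.

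Among the cytosolic RNA sensors, DDX58, which encodes RIG-I and detects viral RNA with a triphosphate end, measured 251, 242, 284 and 264 in control, 188, 155, 173 and 153 with IL-1β and 382, 206, 195 and 173 with Empa. Every IL-1β array was below every control array. The fold change did not pass the test (0.642-fold, log2 fold change -0.64 ± 0.21 SE, adjusted p = 0.0762), but passed it without HK-2 Empa replicate 1 (adjusted p = 0.0128). IFIH1, which encodes MDA5, the sensor of long double-stranded RNA, measured 325, 384, 271 and 209.9 in control, 342, 266, 192 and 162 with IL-1β and 365, 391, 353 and 316 with Empa. The IL-1β values overlapped the control values, and with Empa each slide was above its own control, by 0.02 to 0.59 on the log2 scale (adjusted p = 0.517).

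Of the 4 transcription factors none passed the test for either agent (limma, 0 of 4). IRF1, an activator shared by the interferon and NF-κB pathways, holds both a GAS and an NF-κB site in its promoter, shown here because its IL-1β signal was above control on every slide. The sequence (RefSeq GRCh38.p14, chr5:132490774-132490933, minus strand) ends at the base before the start, and capitals mark GAS first and then the NF-κB site.
IRF1: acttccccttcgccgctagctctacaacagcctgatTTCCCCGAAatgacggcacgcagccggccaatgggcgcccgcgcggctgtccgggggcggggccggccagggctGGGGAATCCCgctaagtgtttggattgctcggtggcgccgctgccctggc
IRF1 measured 40.8, 29.2, 191 and 169 in control, 285, 327, 252 and 176 with IL-1β and 11.3, 42.7, 179 and 132 with Empa. The control arrays of the first slide pair were low and those of the second high, and with IL-1β the 4 slides came close to each other. The log2 differences were 2.81 and 3.48 on the first pair but 0.39 and 0.06 on the second, and the fold change did not pass the test (3.22-fold, log2 fold change 1.69 ± 0.68 SE, adjusted p = 0.14). The range of these differences, 3.43, was the second largest of the members tested. The Empa value of HK-2 replicate 1 was not well above background, at least 3.61-fold lower than its control.

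STAT2, a subunit of the factor that binds ISRE, measured 7278, 5758, 3354 and 2447 in control, 7271, 6464, 1862 and 2184 with IL-1β and 11069, 7718, 2672 and 2521 with Empa. IRF9, its DNA-binding partner, measured 615, 534, 319.8 and 299 in control, 798, 684, 209 and 183 with IL-1β and 422, 390.2, 252 and 242 with Empa. Both were higher on the first slide pair than on the second in each treatment. For IRF9 the IL-1β array was above its control on both slides of the first pair (0.37 and 0.36, log2) and below it on both of the second (-0.62 and -0.71). IRF7, the factor that amplifies type I interferon production, measured 1267, 1468, 689 and 909.8 in control, 1652, 1563, 719 and 682 with IL-1β and 2272, 1748, 901 and 856 with Empa. Its IL-1β values were above both controls on the first slide pair and overlapped the controls on the second. Adjusted p-values with IL-1β were 0.52 for STAT2, 0.739 for IRF9 and 0.932 for IRF7.

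The IFIT genes, whose products bind viral RNA and block its translation, lie side by side on chromosome 10 (probes within 95.1 kb, hg19), and 2 of 3 fell with IL-1β. The promoters of IFIT1 (chr10:89392463-89392622, plus strand) and IFIT3 (chr10:89327837-89327996, plus strand) are shown because the signals of the family were below control on every slide with IL-1β, each as the 160 bases before the start (RefSeq GRCh38.p14). Capitals mark the ISRE cores, 2 in each, which read in the complementary orientation.
IFIT1: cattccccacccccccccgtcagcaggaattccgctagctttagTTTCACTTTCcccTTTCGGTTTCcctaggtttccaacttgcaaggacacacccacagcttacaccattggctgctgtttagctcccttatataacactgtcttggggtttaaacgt
IFIT3: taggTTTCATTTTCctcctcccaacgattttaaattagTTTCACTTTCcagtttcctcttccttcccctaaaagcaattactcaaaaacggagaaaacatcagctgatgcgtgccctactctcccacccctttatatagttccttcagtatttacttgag
IFIT1 (probe at chr10:91163438-91163497, hg19) measured 1681, 2459, 186 and 178 in control, 264, 165, 38.0 and 43.4 with IL-1β and 2398, 2379, 224 and 291 with Empa. Every IL-1β array was far below its control, on slides with high and with low control levels alike. IFIT1 fell with IL-1β (0.151-fold, log2 fold change -2.72 ± 0.28 SE, adjusted p = 0.000876), lower on 4 of 4 slides and the lowest estimate among the members tested. By line label the log2 fold change was -2.35 in HK-2 (adjusted p = 0.0742) and -3.10 in RPTEC/TERT1 (adjusted p = 0.0449), and the difference of -0.74 did not pass the test (adjusted p = 1). The call in RPTEC/TERT1 was lost with no replicate block and after quantile normalization. With Empa the IFIT1 values overlapped those of control (adjusted p = 0.59).

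IFIT2 (probe at chr10:91068397-91068456, hg19) measured 695, 677, 349 and 354 in control, 264, 244, 118 and 137 with IL-1β and 982, 1034, 289.7 and 338 with Empa. Every IL-1β array was below every control array, and the 4 slides differed by 0.20 in their log2 difference, the smallest range among the members tested. IFIT2 fell with IL-1β (0.365-fold, log2 fold change -1.45 ± 0.19 SE, adjusted p = 0.00217). A second probe of IFIT2 had a mean log2 difference of -1.94. IFIT3 measured 775, 823, 428 and 449.9 in control, 442, 329, 169 and 135 with IL-1β and 147, 684, 306 and 371 with Empa. Each IL-1β array was below its control, while HK-2 replicate 1 alone was far down with Empa, at -2.40 against -0.27, -0.48 and -0.28 on the log2 scale. The IL-1β change did not pass the test (0.405-fold, log2 fold change -1.30 ± 0.43 SE, adjusted p = 0.0807), but passed it without HK-2 IL-1β replicate 1 (adjusted p = 0.0341) or without HK-2 Empa replicate 1 (adjusted p = 0.00357). IFIT1 and IFIT2 stayed past the threshold with each array or slide left out (adjusted p at most 0.0123 and 0.0221). Both lost the call with no replicate block and within either replicate number alone, where the adjusted p reached 0.735 and 0.589.

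**Figure D5:**
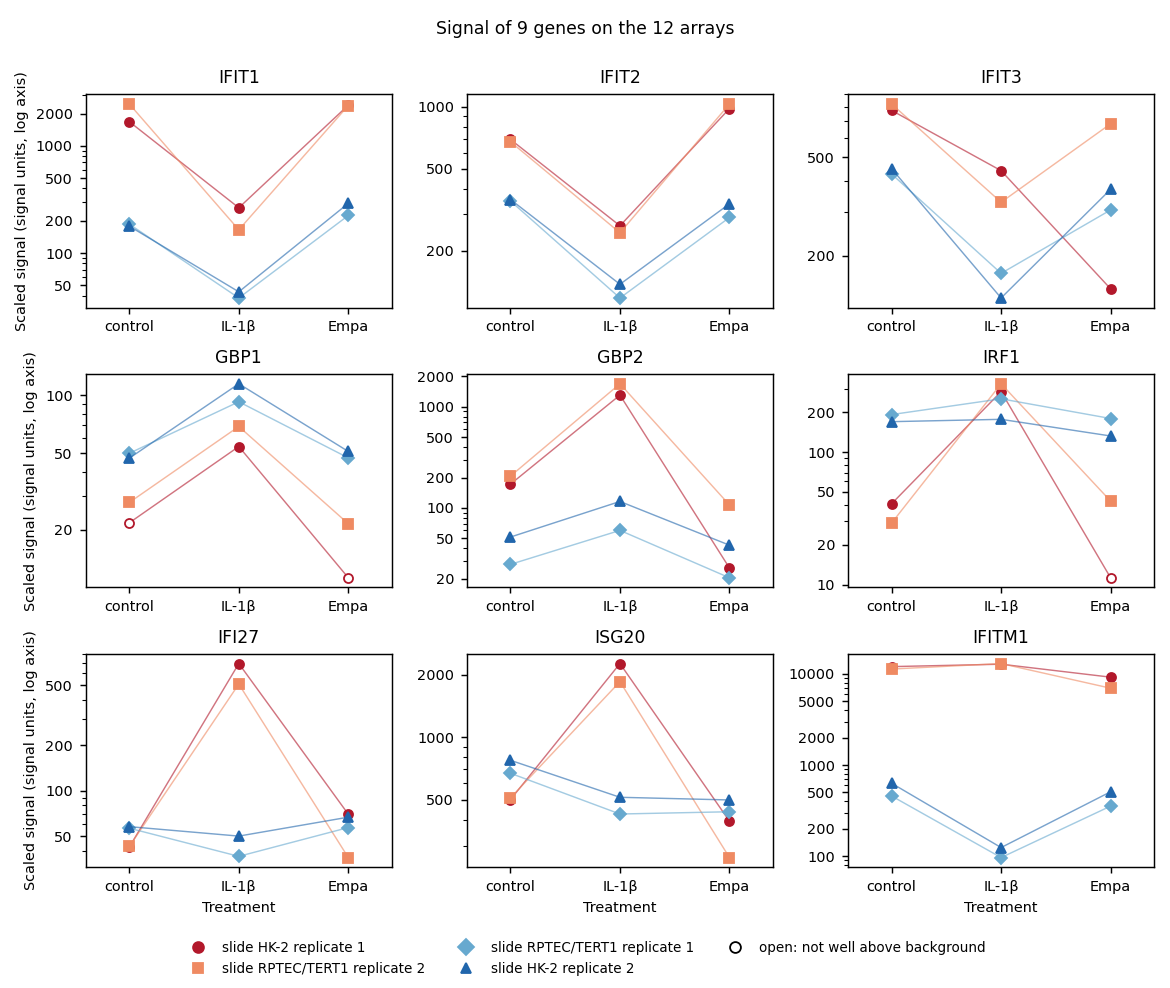
Scaled signal of 9 members (vertical log axis, signal units) under control, IL-1β and Empa, with 1 line per slide and open symbols where the spot was not well above background. IFIT1 and IFIT2 drop with IL-1β on all 4 slides, while IFI27 and ISG20 climb on the HK-2 replicate 1 and RPTEC/TERT1 replicate 2 slides, to 695 and 508 for IFI27.

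None of the 4 genes of the OAS family passed the test for either agent. OAS1, OAS2 and OAS3 make the short oligoadenylates that activate RNase L and have probes within 94.0 kb on chromosome 12 (hg19), and OASL is their relative without that activity. OAS1 measured 28.4, 31.7, 17.6 and 19.5 in control, 64.6, 36.7, 17.3 and 18.0 with IL-1β and 8.71, 25.9, 18.7 and 20.8 with Empa, and the first slide pair was the higher in control and with IL-1β. Both second-pair controls and the Empa arrays of HK-2 replicate 1 and RPTEC/TERT1 replicate 1 were not well above background. The OAS2 signals ran from 11.5 to 32.1 and the OASL signals from 3.88 to 39.1. The OAS3 signals ran from 21.1 to 151, with the second pair higher under each treatment. The log2 fold changes with IL-1β lay between 0.31 and 0.49 in the family (adjusted p from 0.392 to 0.681), and with Empa OASL was at -1.14 (adjusted p = 0.36). This OASL value rests on dim spots, since OASL was well above background on 6 arrays. HK-2 replicate 2 was the only slide where both its Empa and its control spot were so. A second probe of OAS3, well above background on 2 arrays, gave -0.20 with IL-1β, the opposite sign.

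MX1, a dynamin-like GTPase that traps viral nucleocapsids, measured 289, 418, 48.0 and 54.3 in control, 837, 572, 33.2 and 45.8 with IL-1β and 388, 304, 33.3 and 48.5 with Empa. The first slide pair was high and the second low under every treatment. With IL-1β, MX1 was above control on both slides of the first pair (1.53 and 0.45, log2) and below on both of the second (-0.53 and -0.24), and the fold change did not pass the test (1.23-fold, log2 fold change 0.30 ± 0.30 SE, adjusted p = 0.559). Its sign was negative without HK-2 control replicate 1 (-0.0036) or HK-2 IL-1β replicate 1 (-0.0064). MX2, its nuclear-pore-associated relative, stayed between 19.0 and 39.6 on all arrays (adjusted p = 0.246 with IL-1β). A second MX2 probe, well above background on 4 arrays, had a mean log2 difference of -0.04, the opposite sign to the 0.37 of the tested probe.

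ISG15 is a ubiquitin-like protein that HERC5 attaches to target proteins and USP18 removes, and HERC6 is a relative of HERC5. None of these 4 genes passed the test. ISG15 measured 716, 1001, 1529 and 1887 in control, 1346, 1495, 1471 and 1889 with IL-1β and 637, 760.3, 1238 and 1319 with Empa. On the first slide pair the IL-1β arrays were above control (0.91 and 0.58, log2), and on the second they lay at -0.06 and 0.00 (adjusted p = 0.259). USP18 measured 81.1, 30.6, 90.5 and 24.9 in control, 24.9, 17.7, 74.0 and 55.2 with IL-1β and 114, 77.3, 81.7 and 57.6 with Empa. Its IL-1β differences, from -1.70 on HK-2 replicate 1 to 1.15 on HK-2 replicate 2, had the third largest range of the members tested (2.85). The USP18 control of RPTEC/TERT1 replicate 2 was not well above background. The HERC5 signals ran from 88.6 to 447, with the second pair above the first under each treatment. The HERC6 signals ran from 25.7 to 70.1 except on the Empa array of HK-2 replicate 1, at 2.81 and not well above background. With IL-1β, HERC6 was below control on each slide, at -0.69, -0.63, -0.43 and -0.88 (log2 fold change -0.66 ± 0.79 SE, limma adjusted p = 0.635). The dim Empa array enters that SE, and HERC6 is among the members named above for the fit without it.

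The guanylate-binding proteins are GTPases that attack vacuoles and membranes of intracellular pathogens and are known as targets of interferon-γ. Their 5 probes lie within 254 kb on chromosome 1 (hg19), and 1 of the 4 tested was higher with IL-1β. The GBP1 promoter is shown as the gene called higher, as the 160 bases before the start (RefSeq GRCh38.p14, chr1:89065209-89065368, minus strand), with its 1 ISRE core in capitals.
GBP1: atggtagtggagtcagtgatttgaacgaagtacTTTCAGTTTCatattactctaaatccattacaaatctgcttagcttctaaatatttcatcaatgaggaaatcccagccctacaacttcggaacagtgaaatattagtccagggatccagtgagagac
GBP1 (probe at chr1:89518789-89518848, hg19) measured 21.8, 27.8, 50.03 and 47.2 in control, 54.3, 69.0, 92.7 and 115 with IL-1β and 11.3, 21.5, 47.4 and 51.1 with Empa. Every IL-1β array was above every control array, though the control and Empa values of HK-2 replicate 1 were not well above background. GBP1 rose with IL-1β (2.30-fold, log2 fold change 1.20 ± 0.22 SE, adjusted p = 0.0095), higher on 4 of 4 slides, by 1.31, 0.89 and 1.28 on the log2 scale after HK-2 replicate 1, where the fold is known only as at least 2.49-fold. It kept its call with each array left out and lost it without the slide RPTEC/TERT1 replicate 2 (adjusted p = 0.0864), with no replicate block and within either replicate number alone (up to 0.712).

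GBP2 measured 172, 206, 27.7 and 51.6 in control, 1306, 1689.7, 60.0 and 116 with IL-1β and 25.5, 107, 20.4 and 42.8 with Empa. Each IL-1β array was above its control, and those of the first slide pair were the highest of all 12 arrays. The fold change did not pass the test (4.17-fold, log2 fold change 2.06 ± 0.61 SE, adjusted p = 0.0574), with log2 differences of 2.93 and 3.03 on the first pair against 1.12 and 1.17 on the second, and it passed without HK-2 Empa replicate 1, RPTEC/TERT1 IL-1β replicate 1 or HK-2 IL-1β replicate 2 (adjusted p = 0.0186, 0.0381 and 0.0393). GBP5 was well above background on 2 arrays alone, at 129 on HK-2 IL-1β replicate 1 and 109.7 on RPTEC/TERT1 IL-1β replicate 2. This was at least 17.4-fold and 13.0-fold higher than on the control arrays of those slides, while the other 10 signals ran from 1.28 to 8.71. GBP3 ran from 192 to 914 and GBP4 from 33.3 to 218, and with IL-1β neither passed the test (adjusted p = 0.336 and 0.409).

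The membrane proteins held the widest baseline difference between slides among the members tested. IFITM1, IFITM2 and IFITM3 restrict virus entry at the cell surface and in endosomes and have probes within 10.8 kb on chromosome 11 (hg19). The IFITM3 promoter is shown for the 2 ISRE cores, in capitals, within the 160 bases before its start (RefSeq GRCh38.p14, chr11:320861-321020, minus strand).
IFITM3: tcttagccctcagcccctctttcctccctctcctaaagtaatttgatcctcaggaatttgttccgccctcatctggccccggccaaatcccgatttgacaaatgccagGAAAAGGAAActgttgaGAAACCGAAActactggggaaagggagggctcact
IFITM1 measured 12018, 11302, 457 and 631 in control, 12777, 12988, 96.5 and 124 with IL-1β and 9207, 6965, 354 and 509 with Empa. With IL-1β it lay near control on the first slide pair (0.09 and 0.20, log2) and far below on the second (-2.24 and -2.34), and the fold change did not pass the test (0.475-fold, log2 fold change -1.07 ± 0.50 SE, adjusted p = 0.199). A second IFITM1 probe had a mean log2 difference of -1.21.

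IFITM2 (probe at chr11:309109-309168, hg19) measured 34481, 31813, 345 and 626 in control, 21876, 23164, 206 and 245 with IL-1β and 17171, 20393, 295 and 452 with Empa. Every IL-1β and Empa array was below the control of its slide, with no overlap between the pairs. IFITM2 fell with IL-1β (0.574-fold, log2 fold change -0.80 ± 0.22 SE, adjusted p = 0.0438), but the call was lost without each array but HK-2 Empa replicate 1 (11 of 12, adjusted p from 0.0553 to 0.139) and without each of the 4 slides (0.0760 to 0.155). IFITM3 measured 38515, 36398, 814 and 938 in control, 27397, 30493, 439 and 407 with IL-1β and 22139, 24842, 724 and 827 with Empa, again below control on each slide, and did not pass the test for IL-1β (0.611-fold, log2 fold change -0.71 ± 0.24 SE, adjusted p = 0.0837) or for Empa (adjusted p = 0.486).

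BST2, or tetherin, which holds budding virions at the cell surface, measured 4910.1, 6561, 7068 and 8172 in control, 4850.3, 6034, 5627 and 6744 with IL-1β and 5874, 5548, 6131 and 6567 with Empa. Both second-pair controls were above both of the first pair, within a 1.66-fold range, and levels overlapped between treatments (adjusted p = 0.456 with IL-1β). PLSCR1, a phospholipid scramblase that restricts virus entry, had outlier spots on both IL-1β arrays of the first slide pair, so it was not in the test. With those spots kept, PLSCR1 measured 1115, 1366, 702.8 and 528 in control and 4572, 4843, 1161 and 1462 with IL-1β. Each IL-1β array was then above its control, and the fold change passed the test (log2 fold change 1.51 ± 0.23 SE, adjusted p = 0.00438).

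Among the nucleotide enzymes and nucleases, RSAD2, or viperin, makes a chain-terminating nucleotide that stops viral RNA synthesis. RSAD2 measured 137, 145, 1.35 and 1.23 in control, 63.4, 34.6, -1.63 and -0.56 with IL-1β and 129, 68.7, 10.5 and 4.55 with Empa. It was well above background on every array of the first slide pair and on none of the second, and its highest control signal was at least 17.8-fold above its lowest. Both first-pair IL-1β signals were below both first-pair controls, and RSAD2 was not in the test. CMPK2, a mitochondrial nucleotide kinase next to RSAD2, ran from 41.0 to 100.3 (adjusted p = 0.467 with IL-1β). ISG20, an RNA exonuclease, measured 501, 511, 671 and 775 in control, 2263, 1852, 427 and 514 with IL-1β and 395, 264, 438 and 499 with Empa. The IL-1β arrays of the first slide pair were the highest of all 12 (2.17 and 1.86, log2), while those of the second lay below control (-0.65 and -0.59), and the test was not passed (1.62-fold, log2 fold change 0.70 ± 0.52 SE, adjusted p = 0.423).

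IFI27 had the largest difference between slides in its IL-1β change, a range of 4.66 on the log2 scale. Its promoter is shown for 2 ISRE cores in opposite orientations and a GAS that overlaps both, in 1 run of capitals (the 160 bases before the start, RefSeq GRCh38.p14, chr14:94110576-94110735, plus strand).
IFI27: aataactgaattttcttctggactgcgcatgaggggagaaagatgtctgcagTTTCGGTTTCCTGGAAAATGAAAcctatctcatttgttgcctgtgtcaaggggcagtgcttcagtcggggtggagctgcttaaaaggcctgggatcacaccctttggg
IFI27, a small hydrophobic protein of mitochondria and the nuclear envelope, measured 42.3, 42.7, 56.4 and 57.8 in control, 695, 508, 36.7 and 49.996 with IL-1β and 69.8, 36.0, 57.0 and 66.7 with Empa. The 4 control arrays lay between 42.3 and 57.8, and the IL-1β arrays of the first slide pair stood far above the other 10. Log2 differences of 4.04 and 3.57 faced -0.62 and -0.21 on the second pair, and the fold change over the slides did not pass the test (3.24-fold, log2 fold change 1.70 ± 0.81 SE, adjusted p = 0.207).

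The other IFI genes did not pass the test for either agent. IFI6, which protects the endoplasmic reticulum from viral remodelling, ran from 166 to 806, with both first-pair IL-1β arrays (772 and 806) the highest. IFI44L ran from 45.7 to 330.0, and with IL-1β its log2 differences were -1.48 and -1.49 on the second slide pair against 0.56 and -0.23 on the first. With Empa it was below control on each slide, at -1.97, -0.94, -1.05 and -0.82 (log2 fold change -1.20 ± 0.45 SE, adjusted p = 0.36). IFI35 ran from 187 to 584 and IFI44 from 69.3 to 471.

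PARP9, an ADP-ribosyltransferase family member that works with the ubiquitin ligase DTX3L in the interferon response, measured 317, 175, 233 and 158 in control, 145, 92.7, 133 and 80.4 with IL-1β and 157, 200.3, 254 and 211 with Empa. Every IL-1β array was below every control array. PARP9 (probe at chr3:122247297-122247356, hg19) fell with IL-1β (0.515-fold, log2 fold change -0.96 ± 0.23 SE, adjusted p = 0.0302), lower on 4 of 4 slides, but the call was lost without each control or IL-1β array (8 of 12, adjusted p from 0.0506 to 0.110) and without 3 of the 4 slides (0.0885 to 0.151). PARP14, a mono-ADP-ribosyltransferase, ran from 287 to 649.6 and did not pass the test (adjusted p = 0.682 with IL-1β). SAMD9L, a translation-blocking antiviral protein, ran from 18.8 to 353 with the first slide pair higher under each treatment (adjusted p = 0.224 with IL-1β), and its neighbour SAMD9 was well above background on 1 array alone, at 9.82.

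TRIM22 measured 819, 966, -0.26 and 0.98 in control, 325, 326, 2.19 and 1.68 with IL-1β and 781, 507, -0.84 and 0.78 with Empa, and was well above background on every array of the first slide pair and on none of the second. Both first-pair IL-1β signals were below both first-pair controls, and TRIM22 was not in the test. EPSTI1 was well above background on 5 arrays, all of the first pair, at 36.2 and 40.0 in control and 121 and 119 with IL-1β, and was not in the test. XAF1, a pro-apoptotic antagonist of XIAP, was well above background on 1 array, at 17.7. SP100, a scaffold of nuclear bodies, ran from 173 to 502 and LGALS3BP, a secreted glycoprotein, from 976 to 1881. Neither passed the test with IL-1β (adjusted p = 0.761 and 0.112).

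Other genes of the interferon pathway were taken from a list of ligands, receptors, kinases, transcription factors, sensors and negative regulators, of which 38 were on the array and 27 were tested. With IL-1β 5 of 27 were higher (4.52% of all genes tested), and with Empa 0 of 27 passed the test in limma (0.00636% of all genes). Of 8 interferon genes on the array, IFNL2 alone passed the filter on dim probes (adjusted p = 0.688 with IL-1β), and the probes of IFNA2, IFNB1, IFNE, IFNG, IFNK, IFNL1 and IFNL3 were not well above background on any array. Of the 5 genes higher with IL-1β, 3 were among the 6 receptors. IFNGR1, the ligand-binding chain of the interferon-γ receptor, measured 845, 1042, 636 and 755 in control and 5054, 6994, 1238 and 2446 with IL-1β. Every IL-1β array was above every control array (3.99-fold, log2 fold change 2.00 ± 0.28 SE, adjusted p = 0.00316). IFNLR1, the chain specific to interferon-λ, measured 224, 184, 131 and 135 in control and 625, 652, 543 and 662 with IL-1β. The groups did not overlap there either (3.77-fold, log2 fold change 1.91 ± 0.18 SE, adjusted p = 0.000611).

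IFNAR1, a chain of the type I receptor, measured 366, 431, 150.02 and 187 in control and 553, 618, 213 and 293 with IL-1β. Each slide was above its control, with the first slide pair high (1.48-fold, log2 fold change 0.57 ± 0.13 SE, adjusted p = 0.024). TBK1, the kinase that activates IRF3, measured 339, 349, 528 and 419 in control and 573, 506, 709.5 and 554 with IL-1β (1.44-fold, log2 fold change 0.53 ± 0.14 SE, adjusted p = 0.0349). PTPN11, a phosphatase that damps Janus kinase signals, measured 727, 702.9, 1301 and 929 in control and 1054, 938, 1782 and 1505 with IL-1β (1.44-fold, log2 fold change 0.53 ± 0.15 SE, adjusted p = 0.048). In both the control and IL-1β values overlapped across slides while each slide was above its own control. Each of these 3 was higher on 4 of 4 slides. IFNGR1 and IFNLR1 kept their calls with each array or slide left out but lost them with no replicate block and within either replicate number alone (adjusted p up to 0.353 and 0.25), where the other 3 lost theirs as well. Besides, IFNAR1, TBK1 and PTPN11 lost theirs without 8, 11 and 11 of the 12 arrays, respectively (adjusted p up to 0.149), and without each of the 4 slides (up to 0.191).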

How the data were processed

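Cy3-labelled RNA of 12 samples was measured on 12 one-colour arrays. Per the file headers, Agilent Feature Extraction 9.5.3.1 gave background-subtracted intensities per spot with no normalization between arrays, and these were used throughout. The table deposited by the authors is named as quantile normalized, but its log2 values share a distribution only among the arrays of a slide, and it was used as an alternative with that doubt. Of 44495 spots per array, 1377 controls were left out and outlier spots dropped. Intensities were scaled to the 75th percentile of the array (common level 418.7706), floored at 1 signal unit and put on the log2 scale, and repeated spots were averaged into 34127 probes. Per gene, the brightest probe was kept among those that had a value on 12 arrays and, in 1 group or more, were well above background on each array.

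R 4.3.3 with limma 3.58.1 fitted slide as a block and 1 effect per treatment (6 residual degrees of freedom, two-sided), with Benjamini-Hochberg adjustment over all genes, and 1 effect per treatment and line label (4 residual degrees of freedom). The fits were also run on simulated data, of which no outcome is given, and no result rests on those runs. Control levels of the labels were compared in a fit of the 6 groups without a block. Per the file headers, the arrays of a line label and replicate number lie on 1 slide, which gives the pairing. Their deviations from the group mean correlated across genes (12 values, r from 0.592 to 0.906), but with 2 arrays per group these are 6 distinct values that carry the slide difference, so they add no support of their own. Figures used matplotlib 3.10.9. Members past the threshold, a fixed representative of each role and the extremes of level and slide difference are named with values on every array, as are pathway genes past the threshold. Members and lists were chosen with earlier results of these data known. Alternatives covered the block, normalization, background correction, the authors' table, floor, filters, probes, outlier spots, the methods' t-test, single replicate numbers, and each array or slide left out. The filter of at least 2 arrays and the 75th percentile over probes were chosen after seeing the data. Probe positions are hg19, from the array annotation.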

Additional observations from a re-analysis of the deposited data

Results flagged for a closer look

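For each of the 39 tested members and both agents, the 4 log2 differences from control were searched for 1 slide far from the others. Chance would give about 1 of 20 sets only if the 4 slides varied alike. The slides fell into pairs and HK-2 Empa replicate 1 had a wider spread, so this rate is a rough guide. Of 78 sets, 5 had 1 slide apart. With IL-1β, GBP1 was at 0.8897 on the slide RPTEC/TERT1 replicate 1, below the other slides (1.32, 1.31 and 1.28), of which HK-2 replicate 1 had a control signal not well above background, so that its fold is known only as at least 2.49-fold. CMPK2 was at 0.5602 with IL-1β on the slide HK-2 replicate 1, against -0.46, -0.60 and -0.55. With Empa, IFIT3 was at -2.403 on the slide HK-2 replicate 1, against -0.27, -0.48 and -0.28. IFI6 was at 0.2763 with Empa on the slide RPTEC/TERT1 replicate 1, against -0.15, -0.19 and -0.18. HERC6 was at -4.643 with Empa on the slide HK-2 replicate 1, against 0.40, 0.01 and -0.06. That value is not exact, since its Empa signal was not well above background and the fold is known only as at least 7.69-fold lower.

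In 2 members the Empa differences of both slides of one line label lay on the opposite side of 0 from both slides of the other. The RPTEC/TERT1 label minus the HK-2 label was 0.5587 for GBP4 and 2.557 for HERC6 on the log2 scale, and the second rests on the same dim spot. Neither passed the limma test of the difference (unadjusted p = 0.443 and 0.121, adjusted p = 1 for both). The line labels of the slides are themselves in doubt, and causes were not tested.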

How the results depend on the processing

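IFIT1, IFIT2, IFIT3, PARP9, IFITM1, IFITM2, IFITM3 and DDX58 stayed negative with IL-1β under 29 of 29 alternatives, IFNGR1, IFNLR1 and GBP2 positive under 29 of 29 and GBP1 and IRF1 under 28 of 28. IFIT1 and IFIT2 were past the threshold in 26 of 29, GBP1 in 24 of 28, PARP9 in 12 of 29 and IFITM2 in 8 of 29. Among named genes 464 results were the same, 126 lost a call, 13 gained one and 3 reversed. MX1 with IL-1β (0.30) was -0.0036 without HK-2 control replicate 1, -0.0064 without HK-2 IL-1β replicate 1 and ran from -0.11 (without the slide HK-2 replicate 1) to 0.58 with a slide left out. Of the counts, 186 lay within 1.5 times their value and 80 did not.

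With no replicate block, IL-1β called 5 genes higher and 3 lower (1199 unadjusted), 0 members higher and 0 lower, and Empa 0 genes (205 unadjusted). By label, IL-1β then called 0 genes for HK-2 (591 unadjusted) and 0 for RPTEC/TERT1 (449 unadjusted), 0 of them members. The authors' table, whose slides do not share 1 distribution, put 2 members higher with IL-1β, 7 lower, and called 0 genes for Empa (2243 unadjusted). Empa also called 0 genes with normexp, with a floor of 5, with no filter on dim probes and with probes well above background on all 12 arrays (2374, 1920, 2711 and 1696 unadjusted). No filter left 2 members lower with IL-1β, and keeping outlier spots gave 2 higher. Within replicate number 1 or 2 alone, IL-1β called 0 genes higher and 0 lower (1372 and 2428 unadjusted), 0 members higher and 0 lower, and Empa 0 genes (390 and 565 unadjusted). Quantile normalization called 4 genes and 0 members for IL-1β and the RPTEC/TERT1 label. An unpaired t-test, as the methods state for other assays, of IL-1β called 0 genes for HK-2 (657 unadjusted, 1 of them a member) and 0 for RPTEC/TERT1 (417 unadjusted, 3 of them members) after adjustment. The cause was not tested.

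With each array left out, IL-1β called 287 to 1071 genes higher and 503 to 1892 lower, 1 to 2 members higher and 2 to 7 lower, and Empa 0 to 1 genes higher. The counts higher and lower were 297 and 507 without HK-2 control replicate 1, 391 and 666 without HK-2 IL-1β replicate 1, 287 and 503 without RPTEC/TERT1 control replicate 2, 294 and 517 without RPTEC/TERT1 IL-1β replicate 2, 399 and 637 without HK-2 control replicate 2 and 1071 and 1892 without HK-2 Empa replicate 1, and 762 genes were lower without RPTEC/TERT1 control replicate 1. With each slide left out they were 172 to 453 higher and 273 to 730 lower, with 0 to 1 members higher and 2 to 5 lower, and 0 genes with Empa. A group left with 1 array is assumed to vary like the others. Of genes called with IL-1β, 36.4% were higher, against 47.2% after quantile normalization, 50.7% with normexp, 47.7% with the 75th percentile over probes and 39.5% in the authors' table.

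Signal over background limits the dimmest members, since XAF1 and SAMD9 were well above background on 1 array each and GBP5 on 2. OAS1, OAS2, OAS3, OASL, MX2, GBP1, IRF1, USP18, HERC6 and SAMD9L also had arrays not well above background, where the background limits the fold.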
